A study of Mus musculus with 4 samples.

Results

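The genes described here carry calcium into, within and out of the cell or read its concentration, and 2 of them encode channels opened by membrane stretch. They were chosen by symbol: 40 genes of calcium channels, stores, pumps, calmodulin, calcineurin, the Gq to phospholipase C pathway and the Piezo channels, and all 40 were among the 32647 gene symbols of the expression table. The cells came from the kidney cortex of adult C57BL/6 mice of the Ren1c-YFP genotype, at 2 months of age, whose yellow fluorescent protein is under the renin promoter. Captopril, an inhibitor of angiotensin converting enzyme, was given at 0.5 g/L in the drinking water with a diet of 0.1% sodium for 7 days, which brings cells of the renal arterioles to make renin again (recruitment). Fluorescent cells were sorted, and bulk cDNA of a small pool was amplified and sequenced as 2 samples, labelled sample 1 and sample 2, with 2 technical replicates each, so that 4 libraries were measured. All 4 had the same treatment, no untreated cells are analysed here, and no test between conditions was possible. The labels do not state whether a sample is 1 mouse.

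In most secretory cells a rise of calcium in the cytosol triggers release of the stored product, but in the renin cells of the juxtaglomerular apparatus it inhibits the release of renin. Calcium enters such cells through channels of the plasma membrane, or leaves the endoplasmic reticulum when a hormone receptor activates Gq and phospholipase C. Bound to calmodulin, it acts on kinases and on the phosphatase calcineurin. Calcium also inhibits some adenylyl cyclases, the enzymes that make the cyclic AMP that drives renin synthesis and release. Renin cells also respond to the pressure in the afferent arteriole, for which several stretch-sensitive channels have been considered as sensors.

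Levels are given in TPM (the abundance per transcript length, scaled to the same total in each library), so that genes of different length can be set side by side. A level is the mean of sample 1 and sample 2, after averaging the technical replicates of each, and its SD is that over the samples (n = 2). Libraries held between 19871382 and 47471036 estimated counts, and multiplying TPM by the deposited effective length gave back the number of reads behind each value. Genes at 0 reads are listed at 0, with the TPM that 3 reads would have given as the limit, which covers counting error only, since amplified reads are not independent molecules. The cells carried the markers of their label: Ren1 stood between 15933 and 29637 TPM, and every library held all 5 markers of renin cells and all 6 of vascular smooth muscle at 1 TPM or more. Markers of other cells were present too, with sums of 3067 to 12219 TPM for 7 markers of the thick limb, distal tubule and collecting duct, 634 to 12636 TPM for 7 of the proximal tubule, 45.9 to 10803 TPM for 4 hemoglobin genes, 10.9 to 50.1 TPM for 5 of endothelium, 13.4 to 54.9 TPM for 5 of podocytes and 11.4 to 682 TPM for 5 of leukocytes. Fxyd2 made up most of each sum for the thick limb, distal tubule and collecting duct, and Kap most of the highest proximal tubule sum. In bulk RNA of this kind, fewer cells of a type and less RNA per cell cannot be told apart.

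The routes that these cells expressed were uneven. Calmodulin, a single inositol trisphosphate receptor (Itpr1), the calcium pumps Atp2a2 and Atp2b4 with the pump regulator Pln, the alpha subunits of Gq and its close relative, the cation channels Trpc1 and Pkd2 and the accessory channel subunit Cacna2d1 reached 1 TPM or more in every library. These were 11 of the 40 genes (27.5%), against 9.74% of all symbols, 14.0% of the 21227 protein-coding symbols and 13.9% of the 6872 protein-coding symbols whose longest transcript, of 3630 to 8268 bases, was of like length. The calcium-sensing receptor Casr, the channel pores Cacna1d, Cacna1g, Orai2, Trpv4 and Piezo1, and the release channels Itpr3, Ryr2 and Ryr3 reached it in no library. These were 9 of 40 genes, a share of 22.5%, against 47.1% of protein-coding symbols. The remaining genes reached 1 TPM in 1 library (3 genes), in 2 libraries (7) or in 3 libraries (10), so that 31 genes (77.5%) reached it in at least 1 library, against 52.9% of protein-coding symbols.

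**Figure D1:**
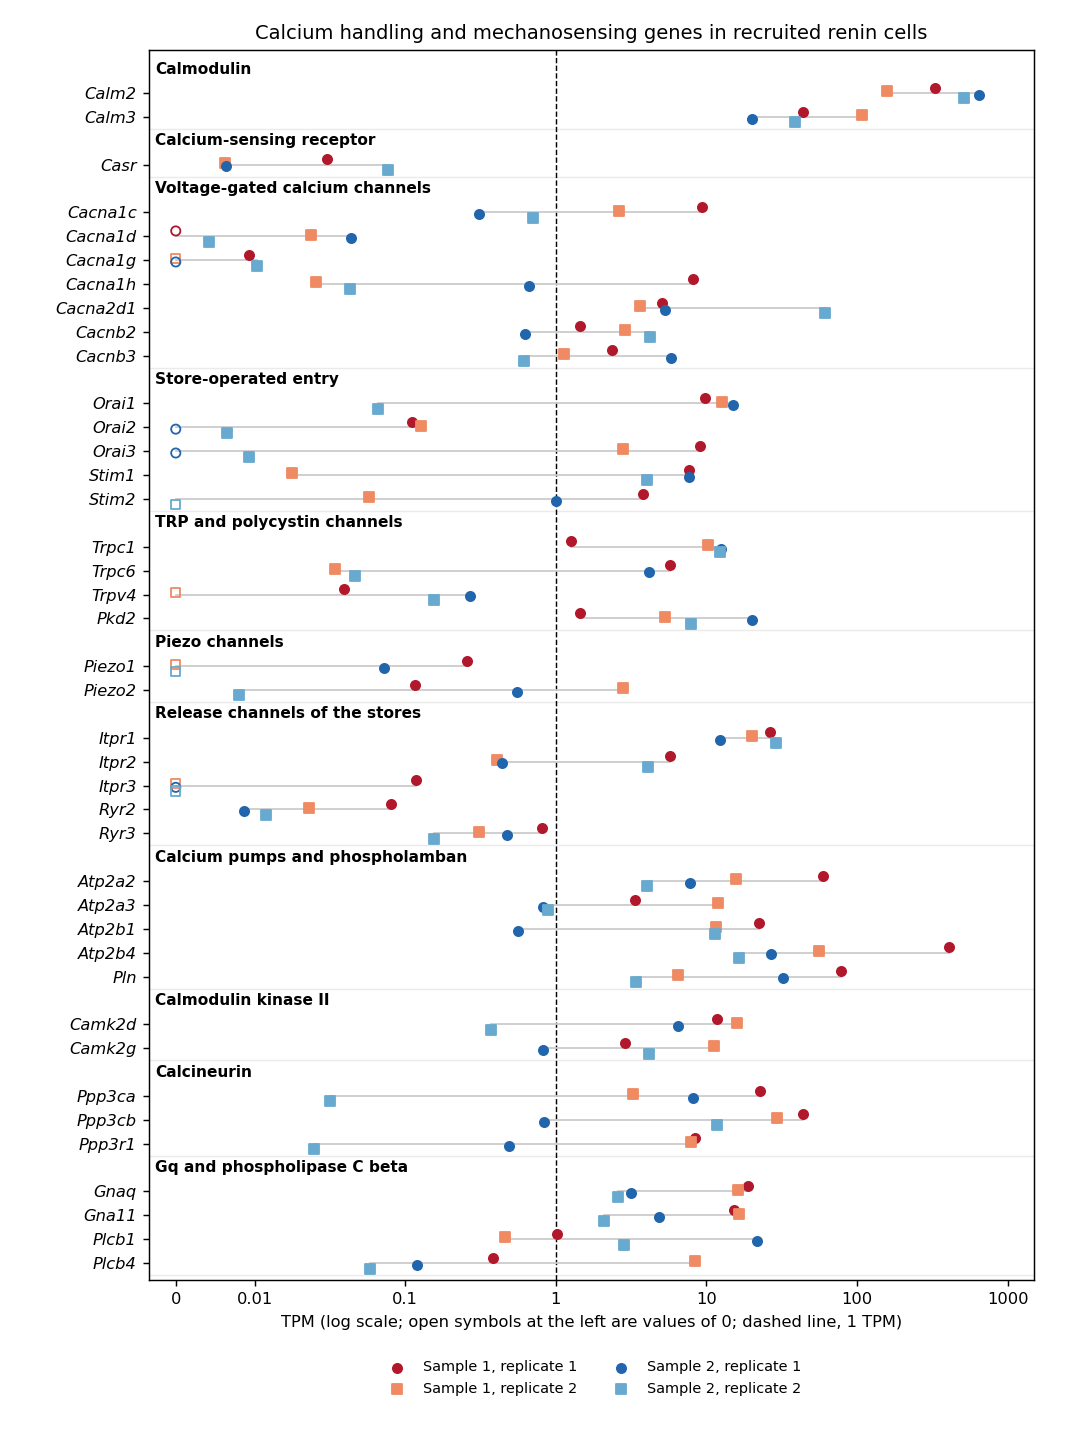
TPM of each of the 40 genes in the 4 libraries (horizontal log axis), grouped by route, with circles for technical replicate 1 and squares for technical replicate 2 (sample 1 in red and orange, sample 2 in dark and light blue). Calm2 and Itpr1 keep to the right of the dashed line at 1 TPM in all libraries, Casr and Ryr2 stay left of it, and genes such as Stim1 and Orai1 have 1 library far from the other 3.

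The median level of the 40 genes was 4.24 TPM, with 4.36 TPM in sample 1 and 2.45 TPM in sample 2, against a median of 0.531 TPM over protein-coding symbols and of 1.82 TPM over those above 0 in any library. At 1 TPM or more were 29 and 25 of the genes in the technical replicates of sample 1 and 19 and 18 in those of sample 2. The number of all genes at that level was 8709 and 7198 in sample 1 and 7070 and 6405 in sample 2, so the libraries of sample 2 held fewer genes as a whole. Technical replicates of 1 sample often disagreed. Of the genes at 1 TPM or more in either replicate, only 1 replicate reached it for 8 of 31 genes in sample 1 (25.8%) and for 11 of 24 in sample 2 (45.8%), where the shares over protein-coding symbols were 46.4% and 52.4%. In all, 32 of the genes were above 0 TPM in every library and 23 had 10 reads or more in every library, while 12 of the 160 values were at 0. A single library held 90% or more of the summed TPM for 3 genes (7.5%), Cacna1h, Itpr3 and Plcb4, against 31.6% of symbols above 0 and 19.6% of protein-coding symbols with a level of 1 TPM or more.

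**Figure D2:**
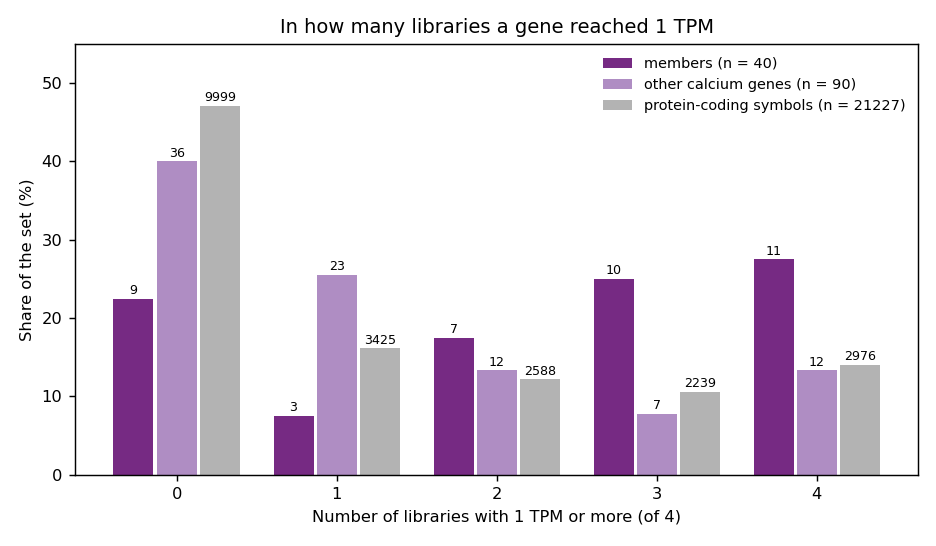
Share of genes (vertical axis, %) that reached 1 TPM in 0, 1, 2, 3 or 4 libraries (horizontal axis), for the 40 genes, for 90 other calcium genes and for 21227 protein-coding symbols, with the number of genes above each bar. Of the 40 genes, 10 and 11 lie at 3 and 4 libraries, whereas the tallest bar of each other set, 36 other calcium genes and 9999 protein-coding symbols, is at 0 libraries.

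Calmodulin, the calcium sensor on which the other effectors depend, was the most abundant product of the set. Its genes encode the same protein. Calm2 (chromosome 17, 87433412 to 87446935, GRCm38) stood at 328 and 159 TPM in sample 1 and at 651 and 511 TPM in sample 2 (technical replicate 1 before technical replicate 2 in each sample, as for all genes), a level of 412 ± 239 TPM (SD, n = 2), above 98.5% of the genes detected. The samples did not overlap for Calm2, and sample 2 was the higher. Calm3 (chromosome 7) was at 43.9 and 108 TPM in sample 1 and at 20.0 and 38.7 TPM in sample 2, with a level of 52.6 ± 32.9 TPM (SD, n = 2). Calm2 lay above Calm3 in all 4 libraries, and their ranges did not meet. Of the sequence of Calm2, read in runs of 31 bases, 18.1% also occurs in other genes, mainly in the copy Gm7308, which had 1 read at most.

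Casr, the receptor by which parathyroid and thick limb cells sense calcium outside the cell, was barely measured. It stood at 0.0303 and 0.00637 TPM in sample 1 and at 0.00647 and 0.0769 TPM in sample 2, which were 2, 1, 1 and 17 reads. Umod and Slc12a1, markers of the thick limb, were at 44.4 to 843 TPM and 7.40 to 200 TPM in the same libraries. Casr thus lay near 0 also where thick limb RNA was found.

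Among the voltage-gated calcium channels, which open on depolarisation, the pores were scarce or confined to some libraries. Cacna1c, the pore of the L-type channel of vascular smooth muscle, was at 9.40 and 2.61 TPM in sample 1 and at 0.308 and 0.707 TPM in sample 2, a level of 3.26 ± 3.89 TPM (SD, n = 2). The other L-type pore, Cacna1d, was listed at 0 and at 0.0236 TPM in sample 1 and at 0.0436 and 0.0050 TPM in sample 2. Cacna1c was the higher in all 4 libraries. Cacna1h, a T-type pore that opens at low voltage, was at 8.21 and 0.0255 TPM in sample 1 and at 0.669 and 0.043 TPM in sample 2, so that technical replicate 1 of sample 1 held 91.8% of its summed TPM. Cacna1g, the other T-type pore listed, had at most 3 reads in any library. Which of Cacna1c and Cacna1h was the higher depended on the length used, since Cacna1h had the higher mean when reads were divided by the longest annotated transcript. Outside the set, the N-type pore Cacna1b had a higher mean than both, 6.02 ± 8.37 TPM (SD, n = 2), but it was at 23.9 and 0.026 TPM in sample 1 and at 0.0424 and 0.166 TPM in sample 2, high in technical replicate 1 of sample 1 alone.

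The accessory subunits that bring these pores to the membrane reached 1 TPM in more libraries. Cacna2d1 did so in 4 and each beta subunit in 3, against 2 for Cacna1c and 1 for Cacna1h. Cacna2d1 (chromosome 5, 15934691 to 16374511) was at 5.07 and 3.63 TPM in sample 1 and at 5.31 and 61.3 TPM in sample 2, with a level of 18.8 ± 20.5 TPM (SD, n = 2). Without technical replicate 2 of sample 2 its level was 4.83 TPM. That library also had the largest sum of proximal tubule markers (12636 TPM, against 634 to 1667 TPM in the others). Kap alone gave 11140 TPM of that largest sum. Miox, Slc34a1, Lrp2, Slc5a2 and Gatm were also highest in that library, and Aqp1 was not. In the same library the sum for the thick limb, distal tubule and collecting duct was largest too (12219 TPM). So were those of hemoglobin genes (10803 TPM) and leukocytes (682 TPM). Those of renin cells, endothelium and podocytes were smallest there (23964, 10.9 and 13.4 TPM). The part of RNA from any of these cells in the value of Cacna2d1 was not tested. The beta subunit Cacnb2 was at 1.46 and 2.88 TPM in sample 1 and at 0.626 and 4.23 TPM in sample 2, and Cacnb3 was at 2.36 and 1.13 TPM in sample 1 and at 5.82 and 0.618 TPM in sample 2. Neither beta subunit lay above the other in all libraries.

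Store-operated entry is carried by the Orai pores of the plasma membrane, which the Stim proteins open when the endoplasmic reticulum is emptied. Orai1 (chromosome 5, 123015074 to 123030456) was at 9.87 and 12.7 TPM in sample 1 and at 15.1 and 0.0662 TPM in sample 2, so 3 libraries lay close together and technical replicate 2 of sample 2 stood at 5 reads. Orai3 was at 9.04 and 2.80 TPM in sample 1, but in sample 2 it was listed at 0, where 3 reads would have been 0.0342 TPM, and at 0.00926 TPM, which was 1 read. Orai2 did not pass 0.128 TPM in any library. Orai1 was therefore the highest Orai pore in all 4 libraries in TPM, and on the longest-transcript scale it was above Orai3 in 3 of them. Of the sensors, Stim1 was at 7.66 and 0.0178 TPM in sample 1 and at 7.64 and 4.05 TPM in sample 2, with 3 reads in technical replicate 2 of sample 1. Stim2 was at 3.81 and 0.0579 TPM in sample 1 and at 1.00 TPM and listed at 0 in sample 2. None of these 5 genes reached 1 TPM in every library, and technical replicate 1 of sample 1 was the library in which Orai1, Orai3, Stim1 and Stim2 all did.

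Trpc1 and Pkd2 were the channel pores of the plasma membrane and cilium in the set that reached 1 TPM in every library. Trpc1, a subunit of receptor-operated cation channels (chromosome 9, 95705082 to 95750375), was at 1.26 and 10.3 TPM in sample 1 and at 12.5 and 12.3 TPM in sample 2, a level of 9.08 ± 4.69 TPM (SD, n = 2) over 170 to 4262 reads. Pkd2, the polycystin channel of the primary cilium that is mutated in polycystic kidney disease (chromosome 5, 104459450 to 104505819), was at 1.45 and 5.29 TPM in sample 1 and at 20.2 and 7.94 TPM in sample 2. Both were lowest in technical replicate 1 of sample 1, and for Pkd2 the samples did not overlap. Pkd2 is also a gene of the tubule, and the 7 markers of thick limb, distal tubule and collecting duct, all present in every library, summed to 3067 and 5119 TPM in sample 1 and to 6986 and 12219 TPM in sample 2. Fxyd2 gave most of these sums, 2989 and 4844 TPM in sample 1 and 5666 and 10973 TPM in sample 2. Umod, Slc12a1, Slc12a3, Calb1 and Kcnj1 were also higher in sample 2 without overlap, and Aqp2 overlapped. The part of tubular RNA in the level of Pkd2 was not tested.

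Trpc6, a cation channel opened by diacylglycerol and known from smooth muscle and podocytes, was at 5.71 and 0.034 TPM in sample 1 and at 4.14 and 0.0467 TPM in sample 2, present in technical replicate 1 of each sample alone. The sum of 5 podocyte markers was higher in the same libraries, at 53.2 and 20.7 TPM in sample 1 and at 54.9 and 13.4 TPM in sample 2, with Synpo the only marker at 1 TPM in every library and Nphs1 under 1 TPM in all. Its part in the values of Trpc6 was not tested. Trpv4, a channel opened by cell swelling and flow, stayed at or under 0.268 TPM.

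The Piezo channels, which open directly on stretch of the membrane, were low. Piezo1, the Piezo channel of endothelium and red cells (chromosome 8, 122481698 to 122551329), was at 0.256 TPM and listed at 0 in sample 1 and at 0.0728 TPM and listed at 0 in sample 2. Where it was listed at 0, 3 reads would have been 0.0215 and 0.0147 TPM. Up to 17 reads were found in the other libraries, and 23.3% of the Piezo1 sequence is shared with other genes, mainly the neighbouring gene Ctu2. Piezo2 was at 0.117 and 2.80 TPM in sample 1 and at 0.557 and 0.00785 TPM in sample 2, which were 11, 483, 84 and 2 reads. Piezo2 was the higher of the pair in 3 of 4 libraries, and it reached 1 TPM in technical replicate 2 of sample 1 only. Of 5 endothelial markers, Pecam1 and Emcn reached 1 TPM in every library, while Kdr and Cdh5 were under 0.1 TPM in all.

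Release from the endoplasmic reticulum was represented by Itpr1, one of the receptors of inositol trisphosphate. Itpr1 (chromosome 6, 108213096 to 108551109) was at 26.4 and 20.0 TPM in sample 1 and at 12.4 and 29.1 TPM in sample 2, a level of 22.0 ± 1.72 TPM (SD, n = 2) over 4543 to 9390 reads. In TPM it held the smallest share in its top library of all 40 genes, 33.2%, and lay above 86.7% of the genes detected. Its effective length ran from 4100 to 8333 bases. On the longest-transcript scale it was at 38.7 and 39.6 in sample 1 and at 12.6 and 24.1 in sample 2, without overlap. Itpr2 was at 5.73 and 0.407 TPM in sample 1 and at 0.441 and 4.13 TPM in sample 2, and Itpr3 was at 0.117 TPM in 1 library and listed at 0 in the other 3. The order Itpr1, Itpr2, Itpr3 was the same in all 4 libraries with no overlap of ranges. The ryanodine receptors, release channels of striated and smooth muscle opened by calcium itself, were low. Ryr3 was at 0.816 and 0.311 TPM in sample 1 and at 0.475 and 0.155 TPM in sample 2. Ryr2 did not pass 0.081 TPM.

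Of the 4 pumps that remove calcium from the cytosol, Atp2a2 and Atp2b4 reached 1 TPM in every library, Atp2b1 in 3 and Atp2a3 in 2. Atp2a2, the SERCA pump of the endoplasmic reticulum in muscle and most other cells (chromosome 5, 122453513 to 122502225), was at 59.5 and 15.7 TPM in sample 1 and at 7.79 and 4.04 TPM in sample 2. Its relative Atp2a3 was at 3.39 and 12.0 TPM in sample 1 and at 0.822 and 0.891 TPM in sample 2, below Atp2a2 in all 4 libraries. Both SERCA genes were higher in sample 1 without overlap. Pln, phospholamban, which inhibits SERCA pumps (chromosome 10, 53337667 to 53345987), was at 78.8 and 6.52 TPM in sample 1 and at 32.2 and 3.40 TPM in sample 2, high in technical replicate 1 of each sample. Of its sequence, 59.5% is shared with other annotated genes, mainly Gm47644, which is not analysed here, and the library kit does not mark strand, so some of these reads could belong to an overlapping gene.

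Atp2b4, a pump of the plasma membrane, had the second highest level of the set in TPM, and that rank rested on the transcript lengths used. It was at 409 and 56.3 TPM in sample 1 and at 26.7 and 16.6 TPM in sample 2, a level of 127 ± 149 TPM (SD, n = 2). The reads behind these values were 1645 and 3249 in sample 1 and 7964 and 127 in sample 2, so the library with the highest TPM did not hold the most reads. The effective length, by which reads are divided to give TPM, was 124 and 1074 bases in sample 1 and 4653 and 97.2 bases in sample 2. Of the 8 transcripts annotated for Atp2b4 in GENCODE M21, 1 is shorter than 300 bases, Atp2b4-208, and the next shortest has 432 bases. Effective and annotated lengths are unlike measures: for Ppp3r1 an effective length of 3684 bases exceeded its longest annotated transcript of 2859 bases. Atp2b4-208 is shown because it is the shortest, and 2 of the effective lengths lie below all annotated lengths, without singling out this transcript. It is a single exon of 243 bases at chr1:133701639-133701881 on the minus strand of GRCm38, it is annotated as protein-coding with 240 coding bases before the stop codon, and its bases from 1 to 183, in capitals, are A and G alone:

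Atp2b4-208: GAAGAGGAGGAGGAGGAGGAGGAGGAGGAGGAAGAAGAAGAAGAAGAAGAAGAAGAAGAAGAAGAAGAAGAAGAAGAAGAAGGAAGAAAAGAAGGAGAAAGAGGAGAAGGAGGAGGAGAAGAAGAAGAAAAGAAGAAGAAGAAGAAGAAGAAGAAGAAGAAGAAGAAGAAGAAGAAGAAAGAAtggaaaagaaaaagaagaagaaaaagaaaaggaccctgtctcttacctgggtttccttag

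In this transcript 91.4% of bases were A or G, against 50.5% in the longest transcript of the gene, and 57 of its 174 runs of 31 bases also occur in other genes. It lies whole within the longest transcript, Atp2b4-206 (11725 bases). When the recovered reads were divided by that longest transcript, those of all genes by theirs, and scaled to the same total as TPM, Atp2b4 was at 9.38 and 12.1 in sample 1 and at 18.6 and 0.274 in sample 2, and its place among the 40 genes fell to 11. Atp2b1, the plasma membrane pump of most cells, was at 22.5 and 11.6 TPM in sample 1 and at 0.561 and 11.4 TPM in sample 2, with effective lengths of 6040 to 7988 bases. Atp2b4 lay above Atp2b1 in all 4 libraries in TPM, but Atp2b1 lay above Atp2b4 in 3 of 4 libraries per longest transcript. No source used here names the Ensembl release behind the deposited lengths, and which transcripts took these reads cannot be read from values per gene.

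**Figure D3:**
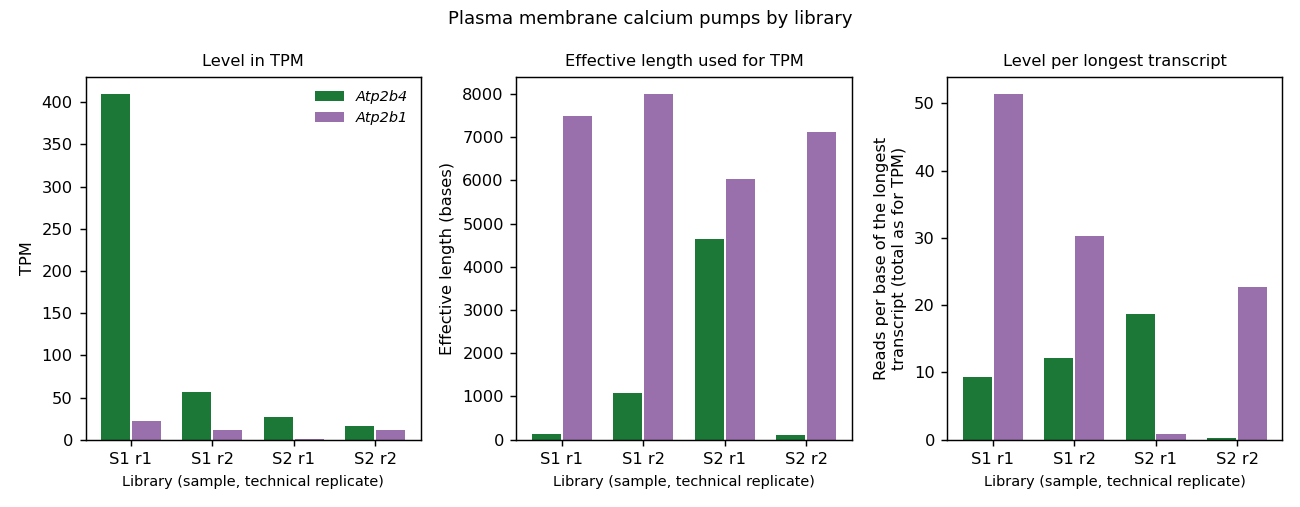
Atp2b4 (green) and Atp2b1 (purple) in the 4 libraries (S, sample; r, technical replicate): TPM (left), effective length in bases (middle) and reads per base of the longest transcript, scaled to the same total as TPM (right). The bar of 409 TPM for Atp2b4 stands over an effective length of 124 bases, and on the right-hand scale the same library is at 9.38.

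The other genes with effective lengths over 2-fold apart between libraries brought the number to 14 of 40. Among them were Itpr2 (607 to 4886 bases), Gnaq (539 to 2934 bases), Plcb4 (397 to 2672 bases) and Cacna1c (1712 to 10610 bases). The share over protein-coding symbols was not computed, so whether such lengths are particular to these genes is not known. On the longest-transcript scale, an alternative chosen after seeing the data, 11 genes again reached a value of 1 in every library, and 9 of them were among the 11 counted in TPM. Ppp3cb and Plcb1 were added, and Atp2b4 and Gnaq were lost.

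Of the targets of calcium and calmodulin, 2 subunits of calmodulin kinase II and 2 catalytic subunits of calcineurin reached 1 TPM in 3 libraries each, and the regulatory subunit of calcineurin reached it in 2. The kinase subunit Camk2d was at 11.7 and 15.9 TPM in sample 1 and at 6.50 and 0.374 TPM in sample 2, and Camk2g was at 2.88 and 11.2 TPM in sample 1 and at 0.822 and 4.14 TPM in sample 2. Neither isoform led in all libraries. For calcineurin, the catalytic subunit Ppp3cb (chromosome 14) was at 44.1 and 29.6 TPM in sample 1 and at 0.841 and 11.8 TPM in sample 2, and Ppp3ca was at 22.6 and 3.26 TPM in sample 1 and at 8.15 and 0.0318 TPM in sample 2. The regulatory subunit Ppp3r1, which the phosphatase needs to act, was at 8.41 and 7.90 TPM in sample 1 and at 0.490 and 0.0249 TPM in sample 2, the last from 2 reads. Both libraries of sample 1 held all 3 calcineurin genes at 1 TPM or more, which was true of none of them in sample 2. Of the Ppp3r1 sequence, 14.6% is shared with other genes, mainly Wdr92.

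The G protein subunits through which angiotensin and endothelin receptors raise calcium were present throughout. Gnaq (chromosome 19, 16132831 to 16387463) was at 18.9 and 16.3 TPM in sample 1 and at 3.19 and 2.61 TPM in sample 2, and Gna11 (chromosome 10, 81528724 to 81545190) was at 15.3 and 16.4 TPM in sample 1 and at 4.84 and 2.09 TPM in sample 2. Both genes were at like levels within a library and lower in sample 2, without overlap. Their effectors, the phospholipases C beta, were split between libraries. Plcb1 was at 1.02 and 0.459 TPM in sample 1 and at 21.8 and 2.86 TPM in sample 2, whereas Plcb4 was at 0.385 and 8.37 TPM in sample 1 and at 0.120 and 0.0583 TPM in sample 2. Plcb1 was the higher of the pair in 3 libraries, and Plcb4 in technical replicate 2 of sample 1.

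Over related genes of the same route, 24 pairs were compared within libraries. One gene of the pair was the higher in all 4 libraries for 13 pairs, and for 8 of these the ranges were apart: Calm2 over Calm3, Cacna1c over Cacna1d and over Cacna1g, Cacna1h over Cacna1g, Itpr1 over Itpr2 and over Itpr3, Itpr2 over Itpr3, and Ryr3 over Ryr2. On the longest-transcript scale 11 pairs kept 1 order in all libraries, and the higher mean passed to the other gene for 3 pairs, Cacna1c and Cacna1h, Cacnb3 and Cacnb2, and Atp2b4 and Atp2b1.

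The samples could be described but not tested, since 2 samples of 1 condition allow no test and technical replicates are not independent. A gene was taken to differ where the libraries of sample 1 and of sample 2 did not overlap and the ratio of the sample means, on TPM + 1, was 4-fold or more. By this rule 9 of 40 genes were higher in sample 1 (22.5%), against 5.82% of protein-coding symbols and 4.06% of all symbols, and 2 were higher in sample 2 (5.0%), against 3.51% and 2.43%. Genes under 1 TPM in every library cannot meet the rule, and these were 47.1% of protein-coding symbols but 22.5% of the 40 genes. The 1235 protein-coding symbols higher in sample 1 all lay among the 9486 with a level of 1 TPM or more. The contrast in shares is thus partly one of detection. Higher in sample 1 were Cacna1c, Orai3, Atp2a2, Atp2a3, Atp2b4, Ppp3cb, Ppp3r1, Gnaq and Plcb4, with folds of 4.65 (Cacna1c) to 10.3 (Atp2b4) on the TPM + 1 scale. Lower in sample 1 were Cacna2d1 and Plcb1, at 0.156 and 0.130 of their values in sample 2 on the same scale. With the fold left out, 15 genes lay wholly higher in sample 1 (37.5%) and 6 wholly higher in sample 2 (15.0%), against 19.5% and 7.57% of protein-coding symbols. The median log2 ratio of sample 1 to sample 2 was 0.42 over the 40 genes and 0.24 over protein-coding symbols with a level of 1 TPM or more.

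Most of these differences rested on 1 library. Without technical replicate 1 of sample 1, Cacna1c, Orai3, Atp2a2 and Atp2b4 no longer met the rule and 5 genes were higher in sample 1, and without technical replicate 2 of sample 1, Atp2a3 and Plcb4 did not meet it. Without technical replicate 1 of sample 2, Ppp3cb and Plcb1 did not meet it, and without technical replicate 2 of sample 2, Cacna2d1 did not. Gnaq and Ppp3r1 met it in all of these. Per longest transcript, Cacna1c, Atp2b4 and Cacna2d1 did not meet it, and Camk2d and Gna11 were added. The 5 renin cell markers summed to 48937 and 46251 TPM in sample 1 and to 27049 and 23964 TPM in sample 2, the 6 smooth muscle markers to 9083 and 5283 TPM in sample 1 and to 3689 and 4291 TPM in sample 2, and mitochondrial genes took 10.4% and 9.26% of TPM in sample 1 and 25.9% and 14.9% in sample 2. Of the renin cell markers, Ren1, Akr1b7 and Crip1 were higher in sample 1 without overlap, whereas the samples overlapped for Gja5 and Rgs5. Of the smooth muscle sums, Tpm2 gave 5423 and 2996 TPM in sample 1 and 1141 and 1704 TPM in sample 2. Tpm2 and Cnn1 were higher in sample 1 without overlap, whereas the samples overlapped for Acta2, Myh11, Tagln and Myl9. The part of the marker and mitochondrial differences in the values of the 11 genes was not tested.

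**Figure D4:**
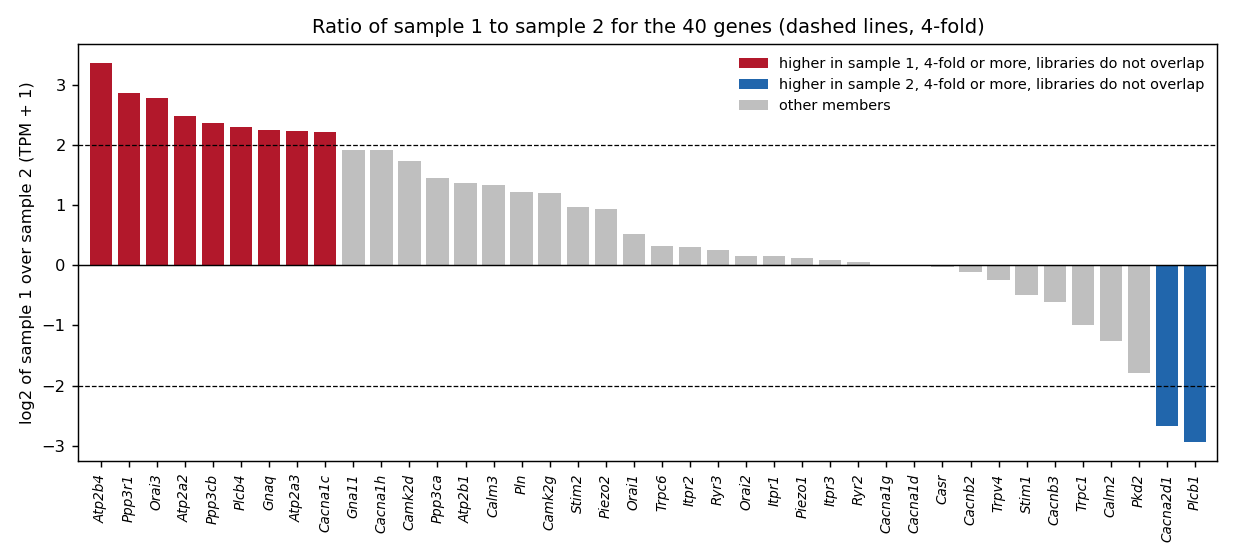
Log2 of the ratio of sample 1 to sample 2 on TPM + 1 (vertical axis) for each of the 40 genes in order, with red for the 9 genes higher in sample 1 and blue for the 2 higher in sample 2 by 4-fold or more without overlap of libraries. Atp2b4 stands highest and Plcb1 lowest, and the grey bars of Gna11 and Cacna1h end just under the dashed line at 4-fold.

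Of 90 other calcium genes in the table, 12 reached 1 TPM in every library (13.3%, against 14.0% of protein-coding symbols). In the lists of sensors and effectors, Mylk, the calmodulin-dependent kinase that starts smooth muscle contraction, was at 269 and 120 TPM in sample 1 and at 54.0 and 60.5 TPM in sample 2, and the calcineurin inhibitor Rcan1 at 0.164 and 1.45 TPM in sample 1 and at 41.0 and 6.83 TPM in sample 2. Of 12 Gq-coupled receptors of vascular cells, Agtr1a, the angiotensin receptor by which angiotensin inhibits renin release, was at 76.7 and 18.6 TPM in sample 1 and at 1.40 and 18.6 TPM in sample 2, and the endothelin receptor Ednrb was at 32.2 and 8.14 TPM in sample 1 and at 16.0 and 22.2 TPM in sample 2. Both receptors thus stood in every library with Gnaq, Gna11 and Itpr1. None of 11 other voltage-gated channel subunits, Cacna1b among them, and none of 11 other Gq and phospholipase C genes reached 1 TPM in every library. Of the calcium-inhibited adenylyl cyclases, Adcy6 reached 1 TPM in 3 libraries and Adcy5 in 1: Adcy6 was at 11.7 and 0.0908 TPM in sample 1 and at 1.25 and 1.53 TPM in sample 2, and Adcy5 was at 1.04 and 0.80 TPM in sample 1 and at 0.462 and 0.309 TPM in sample 2.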

How the data were processed

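Bulk cDNA of sorted recruited renin cells was measured by RNA-seq in 4 libraries: 2 samples with 2 technical replicates each, grouped by the submitters' labels. The authors trimmed reads with Trimmomatic 0.36, used Salmon 0.7.2 to quantify GRCm38 transcripts and Tximport 1.2.0 to make values per gene. The authors deposited TPM, estimated counts (TPM times the mean effective length, scaled to the library total, so not whole reads) and the effective length of each gene in each library, besides their own mean TPM, which equals that of 3 libraries without technical replicate 1 of sample 1 and is not used.

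Reads were recovered as TPM times effective length, scaled to the total of estimated counts of the library. They came out whole within 0.05 for 59.2% to 63.8% of detected genes, the remainder being split between genes or transcripts. The minimum for presence was 1 TPM. Shares over all symbols and over protein-coding symbols stand beside those of the 40 genes. No p-value was computed, since 2 samples of 1 condition allow none. Gene classes, coordinates and transcripts are those of GENCODE M21 (GRCm38), which holds 31475 of the 32647 symbols (96.4%). Named are all 40 genes, the most abundant genes of the lists of other calcium genes, Adcy5, Adcy6 and the markers that check the cell type. Rcan1 and Mcu were named after their values were seen. Some genes that this rule names are left out of the text. The 40 genes, the lists and the rules were chosen with earlier results of these data known. Alternatives left out each library and each sample, rescaled TPM without mitochondrial or without the 20 highest genes, averaged on a log2 scale, and changed the minimum, fold, pseudocount and share. A scale per longest transcript, a minimum of 10 recovered reads and the calls with each library left out were added after seeing the data. The calculations were tested on simulated data. Used were Python 3.11.15, pandas 2.3.3, numpy 2.4.6 and matplotlib 3.10.9.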

Additional observations from a re-analysis of the deposited data

Results flagged for a closer look

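For 6 of the 40 genes (15.0%), 1 library lay far from the other 3, with a gap to the nearest of them, as a share of the whole range, above Dixon's critical value. Over 16477 protein-coding symbols above 0 TPM the same was true of 41.3%. The critical value is set for about 1 in 20 with independent values from 1 normal distribution. TPM are bounded at 0 and technical replicates are not independent, so that rate is no reference for these shares. In all 6 of the 40 genes the library that stood apart was the high one. Technical replicate 1 of sample 1 stood apart for Cacna1h (8.21 TPM, against 0.669 TPM or less in the others), for Itpr3 (0.117 TPM, against 0) and for Atp2b4 (409 TPM, against 56.3 TPM or less). Technical replicate 2 of sample 1 stood apart for Plcb4, at 8.37 TPM. In sample 2, technical replicate 1 stood apart for Plcb1, at 21.8 TPM, and technical replicate 2 for Cacna2d1, at 61.3 TPM. In each case the other technical replicate of the same sample did not share the high value, as the rule itself requires.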

How the results depend on the processing

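The count of genes at 1 TPM or more in every library, 11, lay between 11 and 15 when 1 library was left out and was 13 without sample 1, 14 after rescaling without mitochondrial genes and 11 per longest transcript. It was 23 without sample 2, 17 after rescaling without the 20 highest genes, 17 at a minimum of 0.5 TPM, 4 at 5 TPM, 22 with 10 estimated counts and 23 with 10 recovered reads; the cause of the difference between leaving out sample 2 and sample 1 was not tested. The median level of 4.24 TPM was 2.45 TPM without sample 1, 7.68 TPM without the 20 highest genes and 5.62 per longest transcript. Genes with 90% or more of their TPM in 1 library, 3 in all, were 5 to 9 with 1 library left out and 7 at a share of 80%. Genes higher in sample 1, 9 in all, were 5 to 13 with 1 library left out and 9 to 13 under the other settings. Genes higher in sample 2, 2 in all, were 1 to 4 with 1 library left out, 4 at 2-fold and 1 per longest transcript. The level of 27 of the 40 genes moved over 1.5 times when 1 library was left out. No paired analysis was possible because there is 1 condition, so no groups share replicate numbers. Of the 160 values, 23 rest on 3 recovered reads or fewer, so absence there was not detectable at this depth.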

Other observations

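Among calcium genes outside the set, Smdt1, Saraf and Tmbim6 reached 1 TPM in every library. Smdt1, an essential subunit of the mitochondrial calcium uniporter, was at 582 and 526 TPM in sample 1 and at 549 and 659 TPM in sample 2, a level of 579 ± 35.2 TPM (SD, n = 2), although Mcu, the pore of the same uniporter, had 3 reads at most in any library. Saraf, which switches store-operated entry off, was at 45.8 and 137 TPM in sample 1 and at 28.3 and 37.6 TPM in sample 2, and Tmbim6, a leak channel of the endoplasmic reticulum, was at 26.3 and 23.4 TPM in sample 1 and at 62.5 and 138 TPM in sample 2.

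Trpm4 and Pcp4 were high in sample 1 and nearly missing from sample 2. Trpm4, a cation channel opened by calcium, was at 145 and 19.7 TPM in sample 1 and at 0.0599 and 0.0161 TPM in sample 2, with effective lengths of 263 and 231 bases in sample 1 and of 2107 and 2527 bases in sample 2. Pcp4, a small protein that binds calmodulin, was at 135 and 74.0 TPM in sample 1 and at 0.335 TPM and listed at 0 in sample 2. Over the 90 genes, 7 were higher in sample 1 (7.78%) and 2 in sample 2 (2.22%) by the 4-fold rule, against 5.82% and 3.51% of protein-coding symbols.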
